A study of Mus musculus with 6 samples.

Results

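The genes described are 10 receptors and adaptors by which mouse neutrophils and other myeloid cells sense antibody-coated particles, fungal and mycobacterial glycolipids and inflammatory ligands. They are the Fc receptor genes Fcgr1, Fcgr2b, Fcgr3 and Fcgr4, the signalling chain Fcer1g, the C-type lectins Clec4d, Clec4e, Clec7a and Clec5a, and Trem1. Members were chosen by gene symbol, and they took in 17 of 45101 probe sets and 10 of 18193 named genes. The samples were blood neutrophils from 3 phd3 null and 3 wild-type mice, both on a C57 background, isolated by negative magnetic selection and kept at 3% oxygen for 4 h. The phd3 gene, now Egln3, encodes a prolyl hydroxylase that uses oxygen to mark hypoxia-inducible factors for degradation, and both groups received the hypoxic culture. Each Affymetrix array was 1 mouse, and no normoxic sample was analysed here. The labels give neither the extent of the deletion nor the age of the mice.

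Fc gamma receptors bind the constant part of IgG. FcγRI, FcγRIII and FcγRIV, the products of Fcgr1, Fcgr3 and Fcgr4, signal through the common gamma chain FcRγ, encoded by Fcer1g, whose tyrosine motif (ITAM) recruits the kinase SYK. FcγRIIb, the product of Fcgr2b, carries an inhibitory motif (ITIM) and recruits the phosphatase SHIP-1. Mincle (Clec4e) and MCL (Clec4d) also use FcRγ, MDL-1 (Clec5a) and TREM-1 (Trem1) use the adaptor DAP12, encoded by Tyrobp, and Dectin-1 (Clec7a) carries its own half-ITAM. Fcgr2b, Fcgr4 and Fcgr3 are neighbours on chromosome 1, which also holds Fcer1g, and Clec4d and Clec4e are neighbours on chromosome 6.

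A sequence feature that the choice of genes did not use is shown first, because most of the 10 promoters held it. GAGGAA, the core bound by PU.1 and related ETS factors of myeloid cells, was searched on both strands of the 250 bases before the first listed start of each gene (RefSeq, GRCm38.p6), which for Fcgr3 lies inside the annotated gene. It was present in 8 of 10 members, against 23.1% of 27025 promoters. The exceptions were Fcgr2b and Fcer1g. Promoters of other myeloid genes were not compared, and a match does not show binding. The lines below run 5′ to 3′ on the strand of the gene, up to 18 bases each side of a match, and the capitals mark the match, written TTCCTC where the core lies on the opposite strand.
Fcgr1, chr3:96294001-96294042, minus strand: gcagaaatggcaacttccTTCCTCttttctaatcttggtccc
Fcgr3, chr1:171059404-171059427, minus strand, ending at a start site inside the annotated gene: gcaagagagtccatttccTTCCTC
Fcgr4, chr1:171018886-171018925, plus strand: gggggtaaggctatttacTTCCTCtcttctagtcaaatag
Clec5a, chr6:40585837-40585878, minus strand: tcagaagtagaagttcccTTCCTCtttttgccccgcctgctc
Clec4e, chr6:123289904-123289945, minus strand: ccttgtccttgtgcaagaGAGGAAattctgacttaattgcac
Clec7a, chr6:129472852-129472893, minus strand: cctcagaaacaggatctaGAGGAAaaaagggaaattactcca
In these 6 windows the first base of the match lay 55, 6, 22, 55, 56 and 96 bases before the start site, in the order shown. Clec5a and Clec4e each held a second match, and the single matches of Trem1 and Clec4d began 162 and 240 bases before the start.

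The core of the hypoxia response element was searched in the same way. ACGTG occurred in 1 of 10 members (16.6% of all promoters), and GCGTG in 3 of 10 (28.2%). Either form occurred in 3 of 10, Clec4e, Fcgr3 and Fcer1g, against 38.6% of all promoters. Clec4e held both, and its ACGTG match, written CACGT on the opposite strand, is shown because the cells were hypoxic.
Clec4e, chr6:123289872-123289911, minus strand: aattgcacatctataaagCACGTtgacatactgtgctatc
A match describes the letters of this window and does not show binding.

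The replicate 3 arrays of both genotypes differed from the other 4. Their median correlation with the other arrays was 0.739 in phd3 null sample 3 and 0.788 in wild-type sample 3, against 0.838 to 0.866 elsewhere, over 10960 tested genes. Egln3 signal was 87.2, 29.6 and 73.5 in phd3 null samples 1 to 3, against 2088, 1733.9 and 327 in wild-type samples 1 to 3, so every sample bore out its label. Of the neutrophil markers, S100a8 was at 11102.8 to 20428.6 in phd3 null and 17949 to 25479.7 in wild type, while the granule gene Ltf was dim, at 189.2 to 208.7 in phd3 null and 159.3 to 197.8 in wild type. Monocyte markers were also present: Csf1r, the M-CSF receptor gene, was at 8835.9, 10857.8 and 3537.6 in phd3 null and 11088.3, 10045.5 and 4048.6 in wild type. In bulk samples, fewer cells of a type and less RNA per cell cannot be told apart, and several of the 10 genes are also known from monocytes.

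In the comparison of phd3 null with wild-type neutrophils, which asks what the hypoxic cell expresses without PHD3, none of the 10 genes passed the test. The C-type lectins and Trem1 had lower means in phd3 null, by 0.21 to 0.78 on the log2 scale, while the Fc receptor chains went both ways, between -0.61 and 0.31. With limma and no block, 0 of 10 members had an adjusted p under 0.05 (0% of all genes tested) and 0 of 10 an unadjusted p under 0.05 (1.74% of all genes). With the replicate number as a block, 0 of 10 passed at the adjusted level (0.0182% of all genes, which were Egln3 and Ptgr1) and 1 of 10, Clec5a, had an unadjusted p under 0.05 (5.62% of all genes). The adjusted p was 0.9996 for each member without the block and 0.756 to 0.9994 with it. In 0 of 10 members did the groups not overlap, while 6.92% of all genes had groups apart, 3.02% with phd3 null lower and 3.9% with phd3 null higher.

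**Figure D1:**
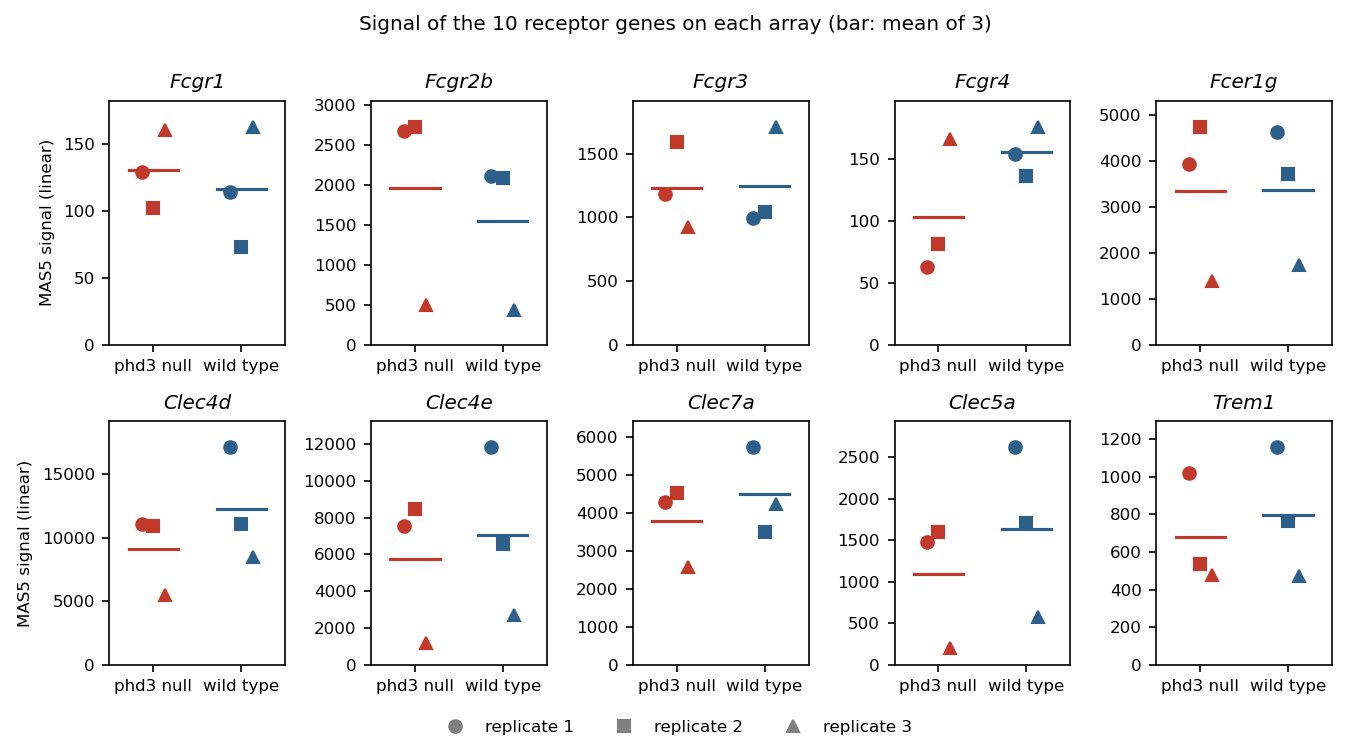
MAS5 signal on a linear axis from 0 for each of the 10 genes, by the probe set that stands for the gene, in phd3 null (red, left) and wild-type (blue, right) samples; symbols mark replicates 1 to 3 and bars the mean of 3. Replicate 3 (triangles) is the lowest of its group for Fcgr2b, Fcer1g, Clec4d, Clec4e, Clec5a and Trem1 in both genotypes, and the highest for Fcgr1 and Fcgr4.

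Clec5a, encoding the DAP12-coupled receptor MDL-1 that binds dengue virus, had the largest mean difference of the 10 when each gene was read by its brightest probe set. Its signal was 1486.1, 1599.3 and 204.3 in phd3 null samples 1 to 3, against 2620.3, 1704.2 and 581.3 in wild-type samples 1 to 3. Every phd3 null sample was below the wild-type sample of its number, but the groups overlapped, since wild-type sample 3 was below phd3 null samples 1 and 2. The log2 fold change was -0.78 (SE 0.79, 95% interval -2.55 to 0.99) by limma, with pairs at -0.81, -0.09 and -1.44. The block reduced the SE to 0.25 and gave an interval of -1.30 to -0.26, with an unadjusted p of 0.006 and an adjusted p of 0.756. Pair 2 added little to the difference. Without both arrays of replicate 3 it was -0.45, with an unadjusted p of 0.119 under the block, and without phd3 null sample 3 alone it was 0.16.

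Clec4e, the Mincle gene, whose product recognises mycobacterial trehalose dimycolate and a nuclear protein of dead cells, varied more between replicates than between genotypes. Its brighter probe set read 7545.7, 8475.5 and 1187.1 in phd3 null, against 11817.8, 6568.2 and 2737.6 in wild type. Both genotypes had their lowest value in replicate 3, and pair 2 went the other way from pairs 1 and 3, with differences of -0.65, 0.37 and -1.19. The log2 fold change was -0.49 (SE 0.78, 95% interval -2.24 to 1.26), and -0.14 without replicate 3. With the block the SE was 0.27, the interval -1.07 to 0.08 and the unadjusted p 0.0892. The other probe set gave -0.12 (SE 0.75), with 2633.4, 2199.5 and 504.5 in phd3 null and 3917.3, 1605.4 and 598.9 in wild type.

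Clec4d, the MCL gene, whose product pairs with Mincle, was lower in phd3 null in every pair. Its signal was 11055.9, 10892.3 and 5504.7 in phd3 null, against 17103.6, 11116 and 8493.4 in wild type. Wild-type sample 1 was well above the rest, and both sample 2 arrays were nearly equal. This gave a log2 fold change of -0.43 (SE 0.45, 95% interval -1.43 to 0.58), with pairs at -0.63, -0.03 and -0.62, and -0.33 without replicate 3. With the block the SE was 0.25, the interval -0.95 to 0.10 and the unadjusted p 0.105. Clec4d was read by 1420804_s_at alone, whose suffix marks sequence shared between transcripts, and which transcripts it reads was not examined.

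Clec7a, encoding the β-glucan receptor Dectin-1, differed least of the lectins. Its signal was 4284.6, 4525.5 and 2587 in phd3 null, against 5736.3, 3504.5 and 4252.8 in wild type. The 2 ranges overlapped, and pair 2 again went upward, at 0.37 against -0.42 and -0.71. Over all arrays it came to a log2 fold change of -0.26 (SE 0.38, 95% interval -1.10 to 0.59), and to -0.03 without replicate 3.

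The 4 lectins had medians of -0.64, 0.17 and -0.95 in pairs 1 to 3. All 4 were lower in phd3 null in pairs 1 and 3, and 2 of 4 in pair 2. Wild-type sample 1 had the highest signal of all 6 arrays for each of them.

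Trem1, which encodes an amplifier of Toll-like receptor signalling on neutrophils and monocytes, was read by 2 probe sets that disagreed in size. The brighter one, 1447284_at, was at 1021.3, 536.7 and 479 in phd3 null, against 1155.5, 762.1 and 470.3 in wild type. Its log2 fold change was -0.21 (SE 0.43, 95% interval -1.17 to 0.74), with pairs at -0.18, -0.49 and 0.03, and -0.33 without replicate 3. The dimmer one, 1460282_at, was at 282.7, 227.4 and 13.8 in phd3 null and 716.2, 316.5 and 258 in wild type. All 3 pairs of this probe set were lower in phd3 null, at -1.29, -0.45 and -3.20, and its groups overlapped only between phd3 null sample 1 and wild-type sample 3. In limma over 18078 probe sets its log2 fold change was -1.65 (SE 0.79) with an unadjusted p of 0.0651 and an adjusted p of 0.9997. With the block these were 0.00129 and 0.565. In this probe set fit 0% of all probe sets passed without the block and 0.0111% with it. Which transcripts of Trem1 each probe set reads was not examined.

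**Figure D2:**
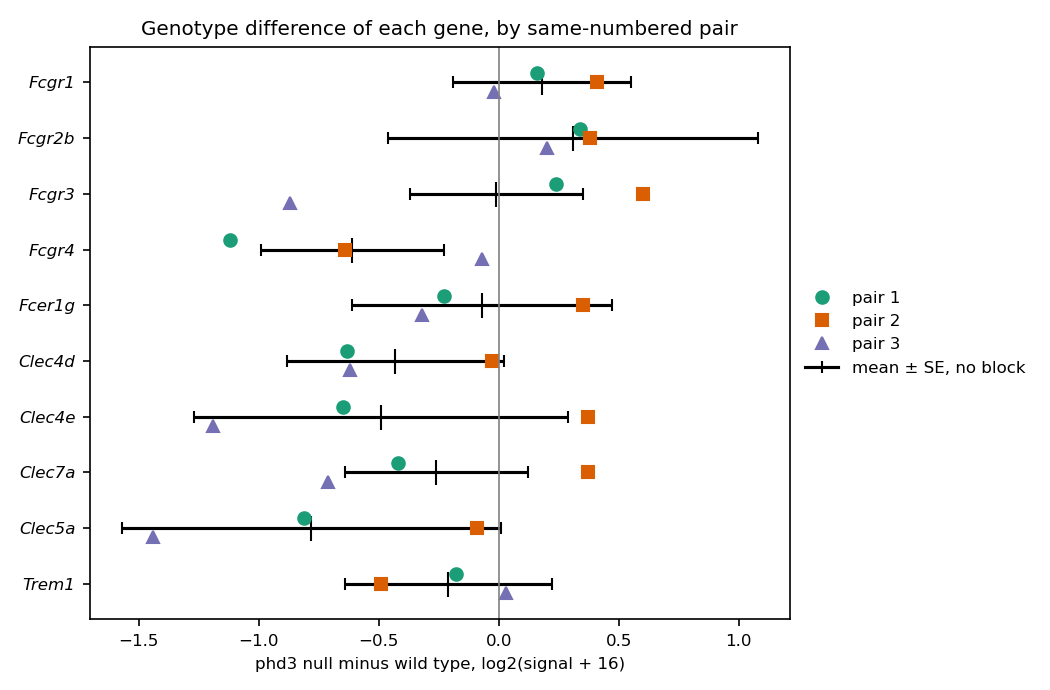
Difference between phd3 null and wild type in log2(signal + 16) for each of the 10 genes (rows), by same-numbered pair (coloured symbols), with the mean and its SE from the limma fit without the block (black). The lectins lie left of 0 in pairs 1 and 3, and Clec5a, Clec4d and Fcgr4 are left of 0 in all 3 pairs, while Fcgr2b is right of 0 in all 3.

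**Figure D3:**
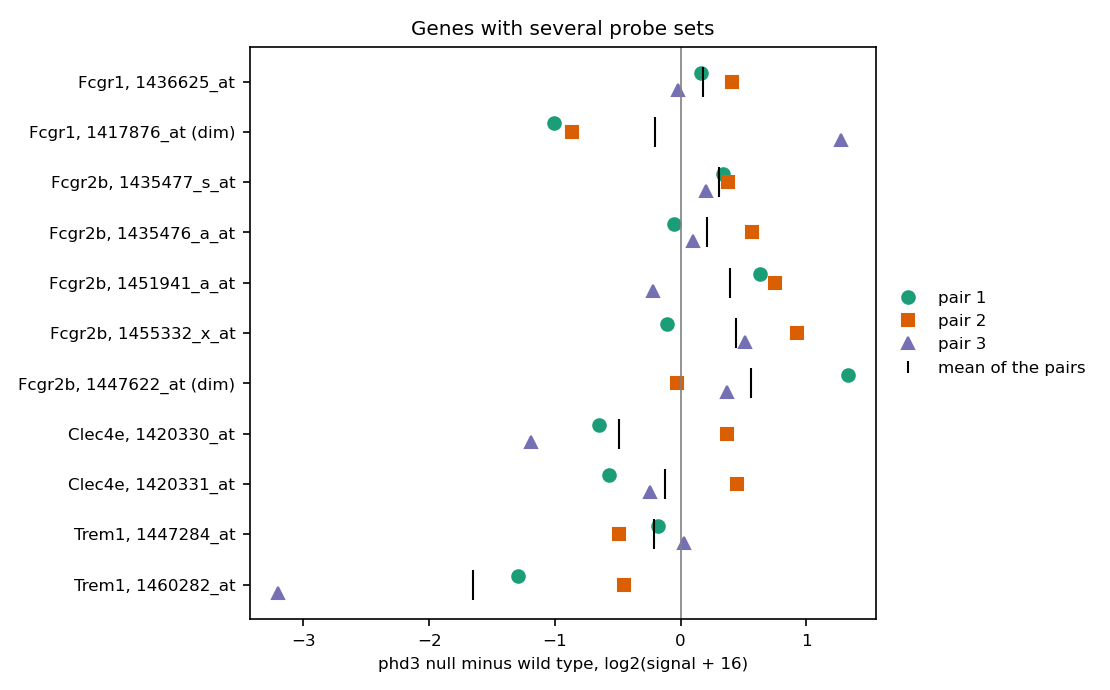
Difference between phd3 null and wild type in log2(signal + 16) for each probe set of the 4 genes with several, by pair (coloured symbols) with the mean of the pairs (black tick); "dim" marks probe sets under the filter on low signals. All 5 Fcgr2b probe sets have a mean above 0, and the Trem1 probe sets have means of -0.21 and -1.65.

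Among the Fc receptors, the inhibitory Fcgr2b was the member that stood higher in phd3 null in every pair, when read by its brightest probe set. Probe set 1435477_s_at read 2667, 2718.5 and 496.7 in phd3 null, against 2104.1, 2086 and 430.6 in wild type. Samples 1 and 2 of phd3 null were above every wild-type sample, and both replicate 3 arrays were far below the rest. Limma gave a log2 fold change of 0.31 (SE 0.77, 95% interval -1.41 to 2.02), with pairs at 0.34, 0.38 and 0.20, and 0.36 without replicate 3. The block narrowed the interval to -0.13 to 0.74, with an unadjusted p of 0.153. The other 3 probe sets above the filter gave 0.21, 0.39 and 0.44, and the dim 1447622_at gave 0.56 on signals of 1.2 to 44.5. All 5 means were on the same side of 0, though they share the RNA and the gene. Each probe set but the brightest had a pair below 0, at -0.05, -0.22, -0.11 and -0.03 in the order given. The suffixes of the Fcgr2b probe sets show that some were designed on sequence shared between transcripts, and the part of the product that binds IgG closely resembles that of Fcgr3, so a share of Fcgr3 signal cannot be told apart here.

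Fcgr3, the low-affinity activating receptor of neutrophils, macrophages and NK cells, had nearly equal means in the genotypes. Its signal was 1179.9, 1589.1 and 925.5 in phd3 null, against 994.7, 1042.2 and 1707.3 in wild type. Pairs 1 and 2 were higher in phd3 null and pair 3 was lower, at 0.24, 0.60 and -0.87. Together they gave a log2 fold change of -0.01 (SE 0.36, 95% interval -0.81 to 0.79), and 0.42 without replicate 3. Of the NK cell markers, 5 of 5 tested had lower means in phd3 null (50.6% of all genes were lower), with a median of -1.13, and 0 passed in either fit. Klrk1, Klre1 and Gzma were lower in every pair, while Prf1 (-0.20) and Ncr1 (-0.23) had mixed pairs. Their summed signals were 433 to 2394.6 in phd3 null against 1219.9 to 5267.1 in wild type, and Gzma made up most of each sum. The part of NK cells in the Fcgr3 values was not tested.

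Fcgr4, an activating receptor for IgG2a and IgG2b, was lower in phd3 null in every pair. Its single probe set read 62.6, 81.8 and 166.3 in phd3 null, against 154.5, 136.5 and 176 in wild type. Samples 1 and 2 of phd3 null were below every wild-type sample, and phd3 null sample 3 lay within the wild-type range. The log2 fold change was -0.61 (SE 0.38, 95% interval -1.47 to 0.25) with pairs at -1.12, -0.64 and -0.07. Without replicate 3 it was -0.88, with an unadjusted p of 0.0534 and an adjusted p of 0.966. The array medians were 49.4 to 64.2, so these signals were low, where MAS5 values vary most on the log scale.

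Fcgr1, the high-affinity receptor for IgG2a, was also low. Probe set 1436625_at read 128.8, 102 and 160.1 in phd3 null, against 114, 72.8 and 162.6 in wild type. The groups shared their range, with a log2 fold change of 0.18 (SE 0.37, 95% interval -0.65 to 1.01), and 0.28 without replicate 3. The other probe set was under the filter, at 8.9 to 49.9 in phd3 null and 11.2 to 72.1 in wild type, and its pairs ran from -1.01 to 1.28.

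Fcer1g, the chain that several of these receptors need for surface expression and signalling, did not pass and had almost the same mean signal in both genotypes. It was at 3934.3, 4728.8 and 1381.6 in phd3 null, against 4624, 3714.9 and 1733.3 in wild type. Pair 2 was higher in phd3 null and the others lower, at -0.23, 0.35 and -0.32. Its log2 fold change was -0.07 (SE 0.54, 95% interval -1.29 to 1.15), with an interval of -0.54 to 0.40 under the block and a value of 0.06 without replicate 3.

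As a set, 8 of the 10 genes had a log2 fold change below 0 in phd3 null, against 50.6% of all genes tested. Of these 8, Fcgr3 at -0.01 and Fcer1g at -0.07 lay near 0 and turned above it in other settings, given below. The median of the 10 was -0.23, beside -0.01 over all genes. By pair, 7, 4 and 8 of 10 were lower, with medians of -0.33, 0.36 and -0.47, and pair 2 therefore went against the other pairs. In every pair 3 of 10 were lower (13% of all genes) and 1 of 10 was higher (12.6% of all genes). The median was 0.10 without phd3 null sample 3, -0.03 without wild-type sample 1 and -0.08 without both replicate 3 arrays.

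Replicate separated most of these genes more than genotype did. Both replicate 3 arrays lay below the other 4 in 6 of 10 members, against 16.9% of all genes, and above them in 2 of 10, Fcgr1 and Fcgr4, against 18.5%. The mean of the replicate 3 arrays differed from that of the others by -2.33 for Clec5a, -2.32 for Fcgr2b, -2.21 for Clec4e and -1.44 for Fcer1g on the log2(signal + 16) scale. Clec4d and Trem1 were at -0.85 and -0.79, Clec7a at -0.42 and Fcgr3 at 0.09. Fcgr1 and Fcgr4, at 0.58 and 0.65, were the members that stood higher there. The median over members was -0.82, beside 0.10 over all genes.

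**Figure D4:**
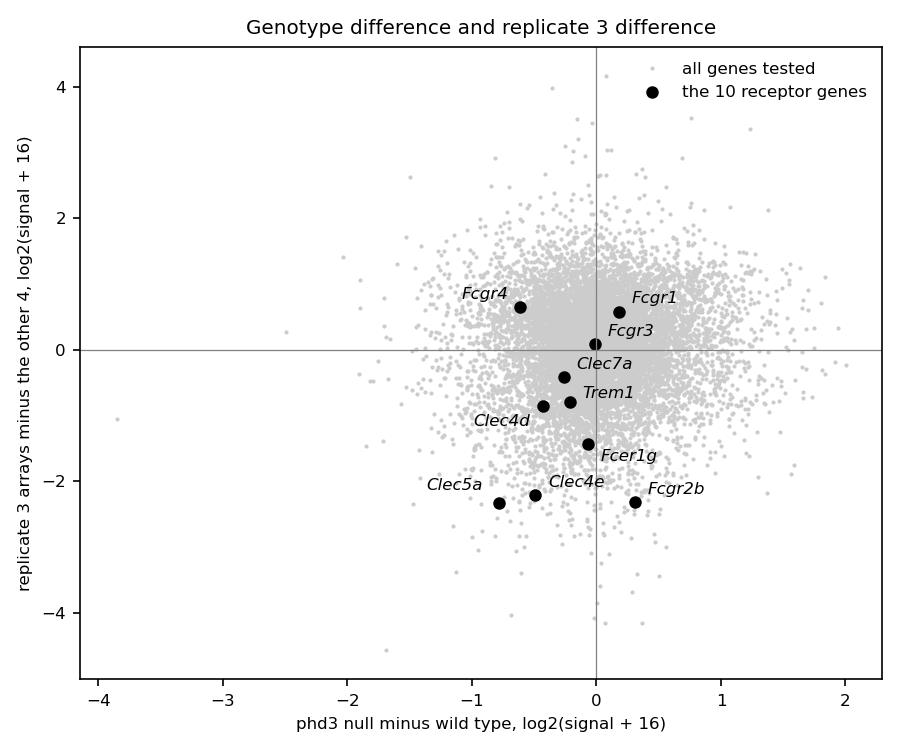
Each gene tested (grey) and the 10 receptor genes (black), by the phd3 null minus wild-type difference (horizontal) and the difference of both replicate 3 arrays from the other 4 (vertical), both in log2(signal + 16). The receptor genes lie between -0.78 and 0.31 horizontally, and between -2.33 and 0.65 vertically.

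Sums of cell type markers moved with replicate 3 as well. The summed signal of 8 tested monocyte and macrophage markers was 19670.8, 20398.4 and 5836.3 in phd3 null, against 18878.1, 19568.6 and 6871.4 in wild type. Of these, F13a1 differed most between replicates, at 455.1 and 474.9 in the phd3 null and wild-type arrays of replicate 3, against 4135 to 6879.1 in the others. Irf8 went the other way, at 425.9 and 367 in those arrays, against 178.6 to 280.5. The sum of 11 tested neutrophil markers was 42239.8, 51563.5 and 26177.7 in phd3 null, against 58345.7, 47439.2 and 43945.5 in wild type. S100a8 and S100a9 made up most of each sum. Cd177 did not move with it: replicate 3, at 232.3 in phd3 null and 131.1 in wild type, lay between replicates 1 and 2. The sum of B cell markers, a list of 6 tested genes, was highest in replicate 3, at 375.4, 723.2 and 5970.4 in phd3 null and 268, 920.4 and 4769.5 in wild type. Between genotypes the monocyte list had 5 of 8 members lower with a median of -0.14, and the neutrophil list 7 of 11 with a median of -0.27. Over all genes 50.6% were lower. Cd177 went the other way, higher in phd3 null in every pair, at 0.33, 1.21 and 0.76. It was the 1 of 11 neutrophil markers whose groups did not overlap (6.92% of all genes). Its unadjusted p was 0.035 and its adjusted p 0.9996 by limma without the block. Eosinophil, and mast cell and basophil, markers were low, with 2 of 5 and 1 of 5 tested and sums of at most 280.1 on any array. The 2 tested erythroid markers, mostly Alas2, summed to 588.8, 3525.2 and 6390 in phd3 null, against 2375.9, 5606.8 and 4193.2 in wild type. T cell sums were highest in replicate 3, at 810.9 in phd3 null and 776.7 in wild type. Dendritic cell sums were 829 to 1274 in phd3 null and 953.1 to 1839.8 in wild type, and platelet sums at most 509.8. The part of these cells in the receptor values was not tested.

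**Figure D5:**
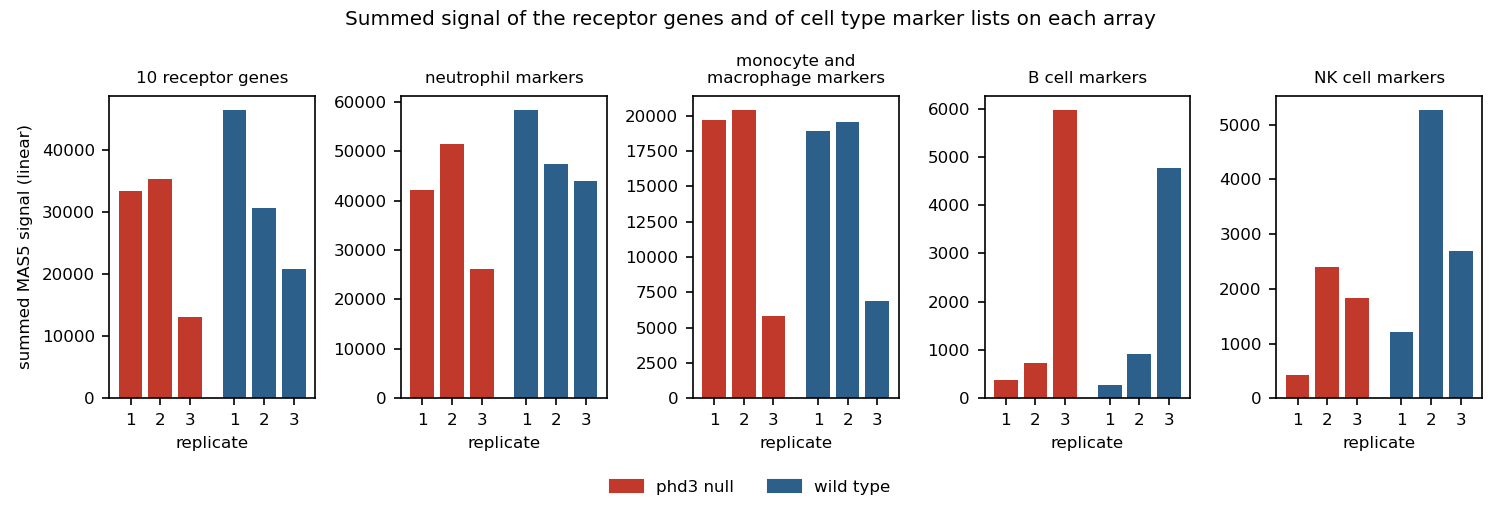
Summed MAS5 signal on a linear axis from 0 for the 10 receptor genes and 4 lists of cell type markers, on each array of phd3 null (red, left) and wild-type (blue, right) mice by replicate number. Receptor, neutrophil and monocyte sums are lowest in replicate 3 of each genotype, B cell sums are highest there, and the NK sums are lower in phd3 null at each number.

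Across the 6 arrays some of the genes varied together. Among 45 pairs of members, Pearson's r ran from -0.737 for Fcgr1 with Fcgr2b to 0.991 for Clec4e with Clec5a, with a median of 0.254. Fcer1g and Clec4e, whose products form a complex, had r = 0.974, and Clec4d and Clec4e had r = 0.954. The Fc receptor genes whose products signal through FcRγ had r with Fcer1g of -0.723 (Fcgr1), 0.028 (Fcgr3) and -0.607 (Fcgr4). Fcgr2b and the DAP12-coupled Clec5a reached 0.964 and 0.955 with Fcer1g, so r did not follow membership of a complex. These points share the 6 arrays and the replicate 3 difference, so r describes the arrays. By the same measure the tested gene most like Clec4e was Tyrobp (r = 0.999), and the nearest to Fcer1g was Snx4 (r = 0.9995). Ubap1 was nearest to Clec5a, Agpat5 to Fcgr2b, Slc22a15 to Trem1, Lrrc8d to Clec4d, Fign to Fcgr4, Cdsn to Fcgr1, Ctnnb1 to Clec7a and Dis3l2 to Fcgr3, with r from 0.9692 for Dis3l2 to 0.999 for Ubap1. All 10960 tested genes were searched for each member.

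Genes of the pathway below these receptors did not pass either. Of 19 ITAM and CARD9 signalling genes, 16 were tested and 0 passed in either fit. Of the 16, 13 had higher and 3 lower means in phd3 null, while 50.6% of all genes were lower. The median was 0.13, beside -0.01 over all genes, with medians of 0.04, 0.50 and -0.02 in pairs 1 to 3. Some of the 13 lay near 0: Malt1 at 0.00 and Btk and Vav3 at 0.06, named after their values were seen. Without the block 1 of 16 had an unadjusted p under 0.05 (1.74% of all genes), and with it 4 of 16 (5.62% of all genes). Syk, the kinase that binds ITAMs, was at 733.9, 720 and 401.4 in phd3 null, against 541.6, 314.1 and 296.9 in wild type. Its groups overlapped only through replicate 3 of phd3 null, with a log2 fold change of 0.67 (SE 0.37) and pairs at 0.43, 1.16 and 0.42. Its unadjusted p was 0.106, and 0.0131 with the block (adjusted p = 0.821). Pik3cd, a leukocyte PI3-kinase subunit, differed by 0.66 (SE 0.39, and 0.26 with the block). Map3k7, the kinase TAK1 between CARD9 and NF-κB, differed by -0.73 (SE 0.31) and was lower in 3 of 3 pairs. It was the 1 of 16 with an unadjusted p under 0.05 by limma without the block, at 0.0403 (adjusted p = 0.9996). Its groups did not overlap (6.92% of all genes), at 92 to 114.5 in phd3 null against 155.1 to 217.6 in wild type. Tyrobp, the DAP12 adaptor of MDL-1 and TREM-1, was at 6276.2, 6657.8 and 2731.2 in phd3 null and 7844.1, 5712.5 and 3914.9 in wild type, a difference of -0.21 (SE 0.46).

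Inhibitory receptors and phosphatases were tested in 10 of 14 cases, with 3 higher, 7 lower, 0 passing in either fit and a median of -0.06. Their medians in pairs 1 to 3 were 0.10, 0.26 and -0.77, and 50.6% of all genes were lower. Without the block 0 of 10 had an unadjusted p under 0.05 (1.74% of all genes), and with it 3 of 10 (5.62%). Ceacam1, an ITIM-bearing adhesion receptor, differed by -1.04 (SE 0.47) with pairs at -0.89, 0.16 and -2.39. Sirpa, the receptor for CD47, was higher in every pair, at 0.69, 1.16 and 0.11 (with the block, unadjusted p = 0.0128 and adjusted p = 0.821 by limma), and Cd300a was lower in every pair, at -0.20, -0.43 and -1.46.

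Other receptors of the same families were tested in 15 of 24 cases, with 5 higher, 10 lower, 0 passing in either fit and a median of -0.23. Their medians in pairs 1 to 3 were -0.06, 0.31 and -0.63, so pair 2 went the other way, and 50.6% of all genes were lower. Without the block 0 of 15 had an unadjusted p under 0.05 (1.74% of all genes), and with it 2 of 15 (5.62%). In every pair 3 of 15 were lower (13% of all genes) and 1 of 15 was higher (12.6%). Treml4, a TREM-family receptor that binds dead cells, was at 891.8, 543.2 and 257.2 in phd3 null, against 1614.8, 960.9 and 579.5 in wild type. Its pair differences were alike, at -0.85, -0.80 and -1.12, giving -0.92 (SE 0.51) without the block. With the block the SE was 0.21, the unadjusted p 0.000526 and the adjusted p 0.356. Treml2 differed by 0.76 (SE 0.52) and Clec4b1 by -0.40 (SE 0.41). Clec4n, the Dectin-2 gene next to Clec4d and Clec4e, was named after its values were seen. It was at 4905.5, 3155.6 and 387.2 in phd3 null, against 8853.3, 5254.5 and 963.8 in wild type. Every pair was lower, at -0.85, -0.73 and -1.28, for a log2 fold change of -0.95 (SE 1.00), and with the block the adjusted p was 0.290.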

How the data were processed

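RNA from 6 mice, 3 phd3 null and 3 wild type, was hybridised to 1 Affymetrix array each, and the deposited table holds signal intensity values that the authors computed with MAS5, per the submitters' processing notes, with no version stated there. The values show a linear scale. With 3 arrays a group, precision is limited by their number, and no detection calls were used. Of 45101 probe sets, 64 controls were left out; 34945 had 1 gene symbol, 932 several and 9160 were unnamed here. Each gene was represented by its brightest probe set on log2(signal + 16), and genes under the median of all non-control probe sets, 5.90, were not tested, which left 10960 genes and all 10 members. A gene passed this filter on its mean over all 6 arrays.

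Genotypes were compared with limma 3.58.1 in R 4.3.3 (two-sided, prior variance with a trend), and Benjamini-Hochberg adjustment over all genes and a threshold of 0.05. Fold changes are phd3 null minus wild type, and the pseudocount of 16 understates those of dim genes. Same-numbered samples share a source code, and the numbers were taken as pairs. Their deviations from group means correlated at 0.292, 0.151 and 0.474. Samples of unlike number correlated at -0.363 to 0.177, the highest being phd3 null sample 2 with wild-type sample 1, above pair 2. These values set replicate 3 apart but do not by themselves match samples 1 and 2. The fit with the replicate block, which changed no member's call, is given beside several of the genes named. The 10 members and the gene lists were chosen with earlier results of these data known. The genes named are the members, Egln3, up to 3 genes of smallest p per pathway list and the gene most correlated with each member; others are said to be named after their values were seen or stand as markers. Code was tested on simulated data. The alternatives covered the pseudocount, filter, normalization, prior variance, probe set choice, block, array weights and left-out arrays.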

Additional observations from a re-analysis of the deposited data

How the results depend on the processing

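In 18 settings, the count of members with an adjusted p under 0.05 was 0 in each. Over all genes, 0 passed without the block, 2 with the replicate block (Egln3 and Ptgr1), 1 without both replicate 3 arrays (Egln3) and 46 with the replicate block on the remaining 4 arrays, a fit with 1 residual degree of freedom. The 46 included 2 sex-linked genes, Xist at -2.12 and Eif2s3y at 1.57. Sex of the mice was in no fit, and its part in the genotype differences was not tested. Leaving out 1 array gave 0 to 1 genes, the 1 being Egln3 without wild-type sample 3. The members' median, -0.23, had its extremes with a replicate 3 array left out, 0.10 if that of phd3 null and -0.51 if that of wild type, and lay between -0.28 and -0.06 in settings that kept all arrays.

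The direction turned for 7 of 10 members in at least 1 setting. Fcer1g was at 0.09 with quantile normalization, 0.15 with array weights and 0.06 without replicate 3, with or without the block. Fcgr3 was at 0.08 with quantile normalization, 0.25 with array weights and 0.42 without replicate 3, with or without the block. As a mean over probe sets Fcgr1 was at -0.01 and Trem1 at -0.93, against 0.18 and -0.21 by the brightest probe set. With each array left out in turn, log2 fold changes covered -1.05 to 0.42 for Clec4e, -1.39 to 0.16 for Clec5a, -0.49 to 0.47 for Fcer1g, -0.08 to 0.43 for Fcgr1, -0.44 to 1.11 for Fcgr2b, -0.21 to 0.24 for Fcgr3 and -0.54 to 0.10 for Trem1. Fcgr4 (-0.96 to -0.36), Clec4d (-0.66 to -0.10) and Clec7a (-0.42 to 0.00) did not turn. The lowest and highest values came mostly with a replicate 3 array left out. Signal over background limits Fcgr1 and Fcgr4, whose signals were low, and the dimmer Trem1 probe set, at 13.8 in phd3 null sample 3.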
